A study of Homo sapiens with 42 samples.

Results

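Antisense transcripts whose symbol ends in -AS and a number were examined in K562 cells, a human line from chronic myeloid leukaemia that carries the BCR-ABL1 kinase. Of 58243 genes in the count tables, 1809 had such a symbol, and 976 of these had 5 or more counts in at least 3 of the 15 nuclear libraries. These 976 are called members here, and the gene whose name stands before -AS is called the partner. The nuclear counts themselves chose the members, so their presence above this level is no finding. The third-highest nuclear count was 5 in 35 members just inside the rule and 4 in 44 transcripts just outside it. Of the 1809, 350 had no count in any nuclear library.

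An antisense RNA is transcribed from the strand opposite to that of another gene and overlaps it or lies close to it. Many arise from bidirectional promoters, where transcription starts in both directions from neighbouring sites, and others start inside a gene or run into its 3′ end from downstream. Some of these noncoding RNAs act on the gene across from them, through chromatin, transcription or RNA pairing, while for most no function is known. They are often unstable and more abundant in the nucleus than in the cytoplasm.

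Untreated cells (CTRL) were compared with cells given 1 µM imatinib (IM), which inhibits the BCR-ABL1 kinase, 5 µM JTE-607 (JTE), which blocks CPSF73, the nuclease that cleaves pre-mRNA 3′ ends, or 110 mM KCl, a hyperosmotic stress. Nuclear RNA, depleted of ribosomal RNA, was sequenced from CTRL, IM 1h, IM 18h, JTE 1h and KCl 1h cells. Polyadenylated RNA of whole cells (mRNA) was sequenced from CTRL, IM 1h, 6h and 18h, JTE 1h, 6h and 18h, and KCl 1h and 3h cells. Every group had 3 biological replicates of the same wild-type line.

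Counting ignored strand although the libraries kept it, which bears on every value below. A read from a partner's intron or 3′ flank that falls on a member's exon was counted for the member, and reads that touched exons of several genes were dropped. Transcription of the member and of the opposite strand therefore cannot be told apart, nor can fewer cells that use a member and less of its RNA per cell.

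The promoters of 4 members are printed. They have the largest log2 fold changes among the members named for their change that lie head-to-head with their partner and have a promoter window. All 4 were at or near 0 in CTRL nuclei and rose with a treatment, CALML3-AS1 and WDR86-AS1 with KCl, MRGPRG-AS1 with imatinib and IDI2-AS1 with JTE and KCl. The RefSeq promoter windows (GRCh38.p14, 250 bases before the start site and 50 after it, 5′ to 3′ on the member's strand) are given, with capitals for a match to a searched motif. CALML3-AS1 (chr10:5526197-5526496, minus strand) lies head-to-head with CALML3, a calmodulin-like gene. WDR86-AS1 (chr7:151408911-151409210, plus strand) faces WDR86, a WD-repeat gene. MRGPRG-AS1 (chr11:3218082-3218381, plus strand) faces a gene of the MAS-related G protein-coupled receptor family. IDI2-AS1 (chr10:1022387-1022686, plus strand) faces IDI2, an isopentenyl diphosphate isomerase.
CALML3-AS1: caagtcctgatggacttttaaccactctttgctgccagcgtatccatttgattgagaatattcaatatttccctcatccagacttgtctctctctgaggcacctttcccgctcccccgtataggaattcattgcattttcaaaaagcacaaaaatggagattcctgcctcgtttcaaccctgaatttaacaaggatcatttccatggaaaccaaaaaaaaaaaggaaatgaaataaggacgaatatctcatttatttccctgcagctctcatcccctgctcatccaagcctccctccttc
WDR86-AS1: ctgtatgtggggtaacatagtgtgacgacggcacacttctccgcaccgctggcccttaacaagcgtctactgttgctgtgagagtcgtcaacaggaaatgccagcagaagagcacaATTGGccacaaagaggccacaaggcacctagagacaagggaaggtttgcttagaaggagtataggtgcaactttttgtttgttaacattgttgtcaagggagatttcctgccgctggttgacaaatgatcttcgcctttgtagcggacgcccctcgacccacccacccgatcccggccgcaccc
MRGPRG-AS1: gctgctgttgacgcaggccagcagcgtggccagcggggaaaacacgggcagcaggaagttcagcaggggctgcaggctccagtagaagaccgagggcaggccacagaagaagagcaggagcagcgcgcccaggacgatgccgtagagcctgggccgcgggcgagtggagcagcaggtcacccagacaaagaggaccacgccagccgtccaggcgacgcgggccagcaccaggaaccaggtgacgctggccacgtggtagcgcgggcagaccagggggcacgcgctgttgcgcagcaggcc
IDI2-AS1: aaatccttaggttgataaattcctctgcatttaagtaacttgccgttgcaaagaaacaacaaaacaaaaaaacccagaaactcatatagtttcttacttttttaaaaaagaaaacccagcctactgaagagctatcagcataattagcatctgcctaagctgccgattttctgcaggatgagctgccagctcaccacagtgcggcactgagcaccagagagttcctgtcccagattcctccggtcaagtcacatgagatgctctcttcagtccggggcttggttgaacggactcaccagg

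A promoter window was found in RefSeq for 703 of the 976 members. Motifs were searched on both strands as TATAAA (the TATA box), CCAAT (bound by NF-Y), AGATAA (bound by GATA factors) and TTCNNNGAA (bound by STAT factors); matches of different motifs that overlap were each counted. TATAAA was present in 7.54% of the member windows and 12% of all 27305 windows. The corresponding shares were 32.6% and 35.7% for CCAAT, 8.68% and 10.5% for AGATAA, and 8.25% and 7.88% for TTCNNNGAA. Of the 4 windows printed above, WDR86-AS1 held 1 CCAAT match, on the reverse strand, and the other 3 held no match. The median GC content was 59.7% in member windows and 58.3% in all windows.

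Members were mostly scarce. Their summed counts made up 0.313% to 0.452% of the nuclear libraries, which held 16175394 to 25103205 counts, and 0.182% to 0.322% of the mRNA libraries, which held 16439848 to 62953314. The median member had a mean of 0.932 CPM, which is the count as a share of the TMM-scaled library size, over the nuclear libraries. Only 75 members reached 10 CPM, 468 reached 1 CPM, and 310 stayed under 0.5 CPM. In mRNA, 735 members met the same count rule and 2 had no count. Erythroid markers were present in all libraries (GATA1 at 177 to 233 CPM in nuclei), whereas KRT5, an epithelial keratin, was at 0 CPM in all 15 nuclear libraries and MS4A1, a B cell marker, reached at most 0.0484 CPM.

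The most abundant members per kilobase of exon were B3GALT1-AS1 at 42.8, FGD5-AS1 at 23.2, PRR11-AS1 at 22.1, BCAN-AS2 at 22.0, and TMEM132D-AS1 and PROSER2-AS1 at 21.3 each, as mean nuclear CPM per kilobase. FGD5-AS1, the antisense RNA of a guanine nucleotide exchange factor gene, was at 109 ± 7.35 CPM in CTRL nuclei (SD, n = 3) and at 151 ± 23.5 CPM in CTRL mRNA. B3GALT1-AS1, named after a galactosyltransferase gene, was at 41.8 ± 3.62 CPM in CTRL nuclei and 25.0 ± 2.74 CPM in CTRL mRNA. PRR11-AS1 shared 30.2% of its 321 exon bases with exons of PRR11 and BCAN-AS2 shared 46.7% of its 758 with exons of BCAN, so their own reads are uncertain. Of these 6 members, PROSER2-AS1 was the only one called in a nuclear comparison.

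Relative to mRNA, members were a larger part of nuclear RNA. Of 644 members with at least 0.5 CPM in CTRL of either fraction, 602 had a higher CPM in nuclei, and the median log2 ratio of nuclear to mRNA CPM (with 0.1 CPM added to each) was 1.27. Their partners had a median of 0.32, with 578 of 810 higher in nuclei, and all 19116 genes past the same level had 0.44. The members had been chosen by their nuclear counts, unlike their partners and all genes. Antisense transcripts present in mRNA but scarce in nuclei were thus left out beforehand, and the medians are not on equal terms. The fractions were prepared by ribosomal RNA depletion and by poly(A) selection and normalised apart, so these ratios are descriptions of the 2 kinds of library. The nuclear RNA MALAT1 was at 10077 to 17349 CPM in nuclear libraries and 1833 to 3518 CPM in mRNA. The mitochondrial MT-CO1 was at 8561 to 13832 and 7426 to 19090 CPM, so mitochondrial transcripts were not depleted in the nuclear libraries. Their share of cytoplasmic RNA was not measured.

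Position relative to the partner separated the members. Of the 976, 960 lay on the strand opposite to the partner, 4 on the same strand, and for 12 no gene of that name was in the tables. By their coordinates, 354 lay inside the partner, 339 overlapped it head-to-head with the 2 start sites nearest each other, 168 overlapped it tail-to-tail with the ends nearest, 48 spanned it, 44 were head-to-head without overlap and 7 were tail-to-tail without overlap. Start sites lay within 1000 bases of the partner's in 221 members and within 300 bases in 85. Members inside a partner had a median exon length of 883.5 bases, all of it intronic to the partner at the median, against 1992 bases in the head-to-head overlapping class, of which a median of 82.2% lay outside the partner. A total of 303 members shared no exon base with any other gene.

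Each fraction was fitted whole with edgeR's quasi-likelihood test, and a member counts as higher or lower where its p, adjusted by Benjamini-Hochberg over every gene in the fit, was under 0.05 and its log2 fold change was above 0.6 or below −0.6. Such members are referred to as called. In nuclei 805 members and 21929 genes in all passed the filter on low counts, and in mRNA 503 and 18095. Counts of members called are descriptions, because a member seen only in the group where it is high had to differ: 32 members met the count rule through a single group, 29 of them through KCl 1h and 3 through IM 18h, and 11 of these 32 were tested. In all, 495 members (61.5% of those tested) were called in at least 1 nuclear comparison with CTRL, against 50.9% of all genes tested, and 313 (62.2%) in at least 1 mRNA comparison, against 47.9%.

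Imatinib for 1 h gave almost no calls among the members. In nuclei no member rose and 1 fell, against 0.00456% and 0.0410% of all genes tested, while 33 members had an unadjusted p under 0.05 and DESeq2 called 3. In mRNA edgeR called no member, against 0.00% and 0.0166% of all genes, 11 had an unadjusted p under 0.05 and DESeq2 called none. With the replicate number as a block, 6 members were called in nuclei. The member that fell was BCL2L1-AS1, a 374-base RNA that lies in introns of BCL2L1, which encodes the survival protein BCL-XL. It was at 4.56, 3.83 and 4.95 CPM in CTRL nuclei and at 1.02, 2.17 and 0.838 CPM in IM 1h nuclei. All treated values lay under all CTRL values, the IM 1h replicate 2 being the highest treated one, and the log2 fold change was −1.69 ± 0.28 (SE; edgeR adjusted p = 0.0214). The call was lost without any single CTRL library and without IM 1h replicate 1 or 3, where the log2 fold change lay between −1.79 and −1.44. BCL2L1 itself was at 115, 125 and 113 CPM in CTRL and 110, 113 and 99.2 CPM in IM 1h nuclei, a log2 fold change of −0.13 ± 0.09. BCL2L1-AS1 was also lower in IM 18h nuclei (log2 fold change −1.18 ± 0.27, edgeR adjusted p = 0.00127), where BCL2L1 fell too, and in KCl 1h nuclei (−1.78 ± 0.29, edgeR adjusted p = 5.34e-05), where BCL2L1 had a log2 fold change of 0.00 ± 0.09.

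**Figure D1:**
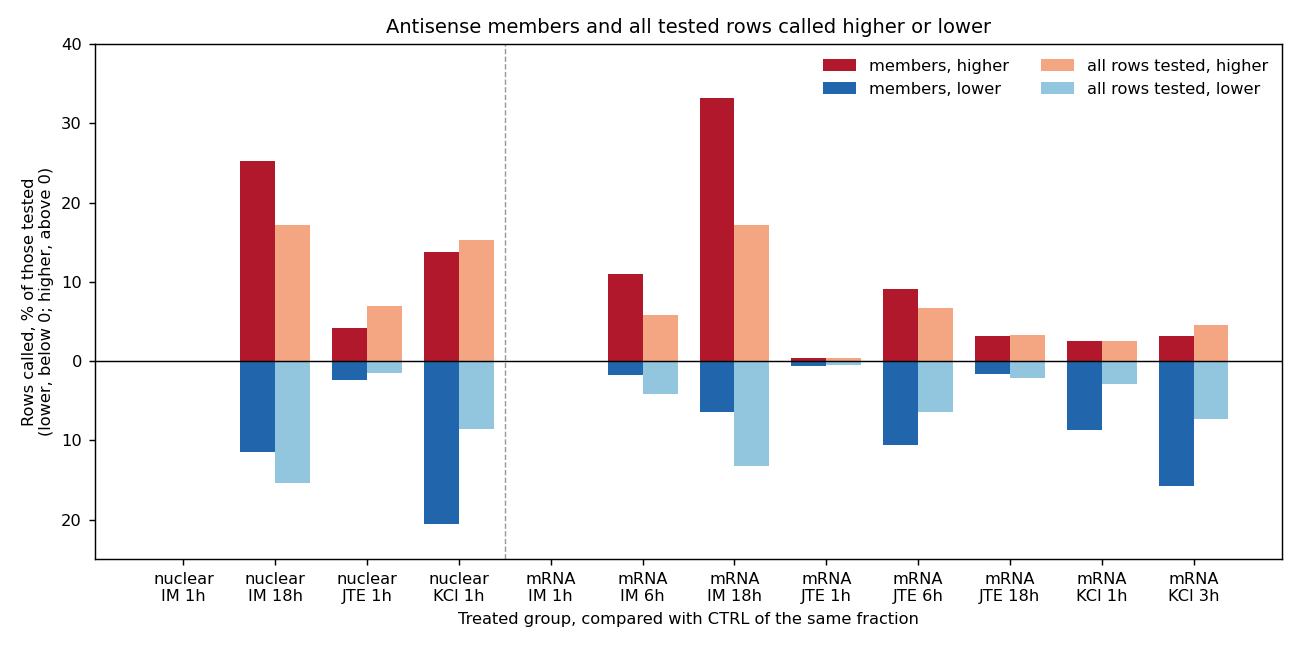
Share of tested antisense members (dark bars) and of all tested genes (light bars) called higher (above 0) or lower (below 0) than CTRL, in percent, for the 4 nuclear and 8 mRNA comparisons. At IM 18h 25.2% of members were higher in nuclei and 33.2% in mRNA, against 17.2% of all genes in each fraction, and at KCl 1h 20.5% were lower in nuclei against 8.50% of all genes.

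Imatinib for 18 h shifted members upward in both fractions. In nuclei 203 of 805 members (25.2%) were higher and 92 (11.4%) lower, against 17.2% and 15.4% of all genes tested, and the median log2 fold change was 0.17 in members and 0.00 in all genes. At a mean nuclear level of 1 CPM or more, 27.1% of members were higher and 14.5% lower, against 16.9% and 18.8% of all genes at that level. Under 1 CPM the shares were 22.6% and 7.12%, against 18.0% and 6.90%, so the lower share was near the background there. In mRNA 167 of 503 (33.2%) were higher and 32 (6.36%) lower, against 17.2% and 13.2% of all genes, with medians of 0.54 and 0.04. At a mean mRNA level of 1 CPM or more the shares were 36.8% and 8.30%, against 15.9% and 15.8% of all genes at that level. Under 1 CPM they were 28.8% and 3.98%, against 21.3% and 5.18%. The treated and CTRL libraries did not overlap in 98.3% of the 295 members called in nuclei and 96.5% of the 199 called in mRNA, and in 97.0% and 97.2% of all genes called there, so this share was near the background. At 6 h of imatinib the mRNA libraries had 55 members higher (10.9%) and 9 lower (1.79%), against 5.82% and 4.12% of all genes, with a median of 0.33. The total of 64 calls became 38, 42 and 33 without CTRL replicate 1, 2 or 3 and 26 without IM 6h replicate 3. Compared with IM 1h directly, IM 18h had 211 members higher and 72 lower in nuclei, against 16.8% and 14.5% of all genes, and 166 higher and 32 lower in mRNA, against 16.3% and 12.9%.

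**Figure D2:**
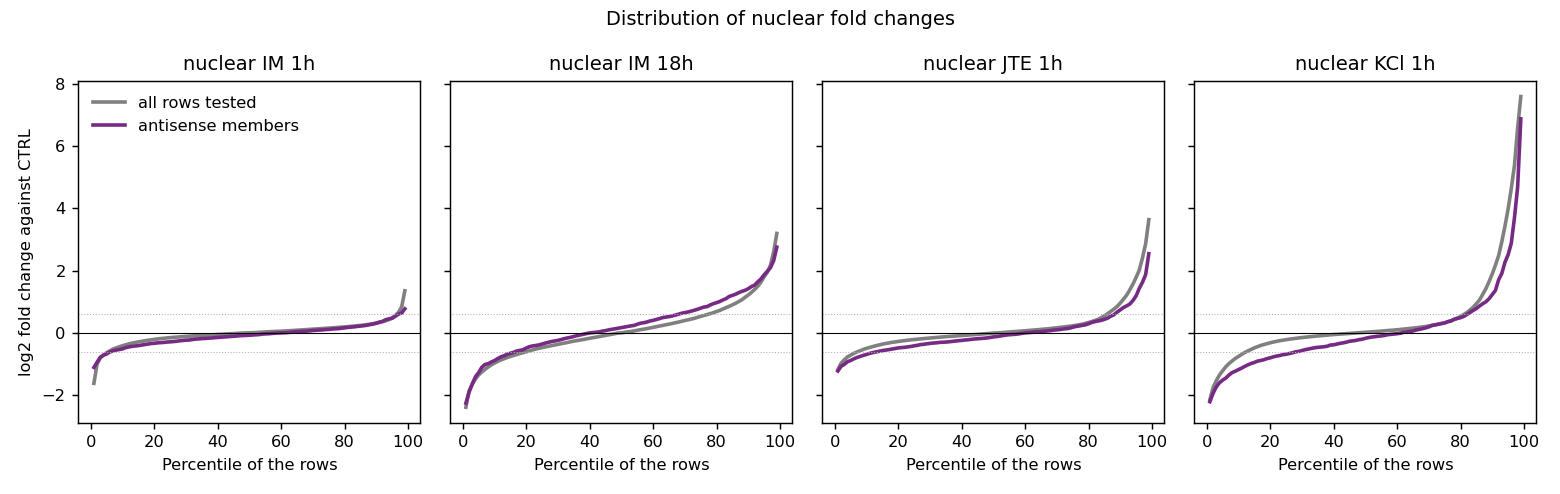
Percentiles 1 to 99 of the log2 fold change against CTRL in nuclear RNA, for all genes tested (grey) and for the antisense members (purple), with dotted lines at 0.6 either side of 0. The members' curve lies above that of all genes over most of the IM 18h panel (75th percentile 0.80 against 0.53) and below it in the lower part of the KCl 1h panel (25th percentile −0.69 against −0.22).

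Among members with a mean of at least 1 CPM in IM 18h nuclei and no overlap of groups, MRGPRG-AS1, RUNDC3A-AS1, WEE2-AS1 and ID2-AS1 had the largest rises. MRGPRG-AS1 was at 0, 0 and 0.0495 CPM in CTRL nuclei and at 3.88, 3.25 and 5.15 CPM in IM 18h nuclei. It met the count rule through IM 18h alone, so no p is given for this rise. Its CTRL nuclei held 1 count in all, so the ratio of 259 has a 95% counting interval of 46.1 to 10274. In mRNA it was at 0, 0.0524 and 0.111 CPM in CTRL, at 0.345, 0.557 and 1.05 CPM at IM 6h and at 3.53, 2.21 and 1.93 CPM at IM 18h. The mRNA levels at both times lay above all CTRL values, and the ratios to CTRL, which held 3 counts, were 11.4 (95% counting interval 3.63 to 57.9) at 6 h and 47.0 (15.8 to 231) at 18 h. MRGPRG was too low to be tested.

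RUNDC3A-AS1, head-to-head with RUNDC3A, a gene of neurons and endocrine cells, rose from 0.134, 0.0911 and 0.149 CPM to 4.04, 1.67 and 2.22 CPM in IM 18h nuclei. Its log2 fold change was 4.37 ± 0.51 (edgeR adjusted p = 8.78e-07), beside 1.69 ± 0.36 for RUNDC3A, and its start lies 4310 bases downstream of SLC25A39 on its own strand. ID2-AS1, across from ID2, an inhibitor of basic helix-loop-helix factors, rose from 0.0894, 0.319 and 0.198 CPM to 2.57, 1.86 and 1.87 CPM, a log2 fold change of 3.36 ± 0.40 (edgeR adjusted p = 1.15e-06). ID2 itself was higher by 1.55 ± 0.35 on the log2 scale, and ID2-AS1 was also higher in mRNA at IM 18h (2.7 ± 0.68). WEE2-AS1, which spans the oocyte kinase gene WEE2, rose by 3.68 ± 0.47 on the log2 scale from 0.0894, 0.228 and 0.099 CPM. None of the 3 had overlapping treated and CTRL nuclear values at IM 18h.

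SGMS1-AS1 reached the highest level among the named members that rose. It starts 212 bases from SGMS1, a sphingomyelin synthase gene, and 98.3% of its exon bases lie outside SGMS1. Its nuclear level was 6.88, 4.92 and 6.04 CPM in CTRL and 64.9, 33.1 and 33.8 CPM at IM 18h, while SGMS1 was at 155, 163 and 167 CPM and at 160, 141 and 149 CPM. The member was higher in every IM 18h library, replicate 1 most, and its log2 fold change was 2.89 ± 0.23 (edgeR adjusted p = 3.67e-08) beside −0.11 ± 0.08 for SGMS1. In mRNA it went from 4.52, 5.50 and 4.91 CPM to 45.7, 34.7 and 25.9 CPM, a log2 fold change of 2.83 ± 0.30 (edgeR adjusted p = 1.51e-07).

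In 8 pairs the member was called higher and its partner lower in IM 18h nuclei, and in no pair the reverse. Of the 763 pairs tested, 190 members were higher and 86 lower, and 116 partners were higher and 123 lower. Both moved the same way in more pairs, 68 higher and 44 lower, so opposite calls were the rarer kind. PSMG3-AS1, head-to-head with the proteasome assembly chaperone gene PSMG3, was at 2.28, 2.92 and 3.22 CPM in CTRL and 15.1, 11.4 and 13.6 CPM at IM 18h, a log2 fold change of 2.25 ± 0.22 (edgeR adjusted p = 7.89e-08). PSMG3 went from 48.6, 57.9 and 54.8 CPM to 27.4, 30.4 and 30.5 CPM, a log2 fold change of −0.87 ± 0.11. Neither pair of groups overlapped. MIDEAS-AS1, facing a gene of a histone deacetylase complex, rose by 1.87 ± 0.46 on the log2 scale from 0.179, 0.319 and 0.149 CPM, while MIDEAS fell by 1.17 ± 0.11 from 140, 142 and 137 CPM.

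Among members with a mean of at least 1 CPM in CTRL nuclei and no overlap of groups, 4 had the largest nuclear falls at IM 18h. They were ETV5-AS1, STEAP1B-AS1, SLCO4A1-AS2 and MRAP-AS1, all 4 inside their partner. SPRY4-AS1, described below, lay under that level and fell more than STEAP1B-AS1. It overlaps its partner head-to-head. ETV5-AS1 lies in introns of ETV5, an ETS transcription factor gene, and went from 1.56, 0.866 and 1.24 CPM to 0.0408, 0.0956 and 0 CPM (edgeR adjusted p = 5.2e-07). Its IM 18h nuclei held 3 counts in all, and CTRL was 25.5 times higher, with a 95% counting interval of 8.42 to 126. ETV5 fell beside it, from 51.4, 44.6 and 36.8 CPM to 2.20, 5.78 and 4.91 CPM. SLCO4A1-AS2, within an organic anion transporter gene, fell by 2.37 ± 0.26 on the log2 scale (edgeR adjusted p = 3.65e-07), beside a fall of 2.43 ± 0.17 for SLCO4A1. STEAP1B-AS1 fell by 2.62 ± 0.39, whereas STEAP1B had a log2 fold change of −0.38 ± 0.15.

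Among the abundant members, PROSER2-AS1 and TRG-AS1 fell in both fractions. PROSER2-AS1 was at 89.6, 80.4 and 79.0 CPM in CTRL nuclei and at 21.6, 27.9 and 24.9 CPM at IM 18h, a log2 fold change of −1.75 ± 0.10 (edgeR adjusted p = 2.78e-10). It was already lower in mRNA at IM 6h, with 25.0, 21.7 and 24.1 CPM against 55.2, 55.5 and 59.5 CPM in CTRL (log2 fold change −1.26 ± 0.17, edgeR adjusted p = 2.16e-05). PROSER2 had a log2 fold change of −0.34 ± 0.14 there, which did not pass the test. TRG-AS1, from the T cell receptor gamma locus, fell by 1.91 ± 0.16 on the log2 scale in IM 18h nuclei and by 1.74 ± 0.21 in mRNA (edgeR adjusted p = 1.54e-08 and 5.44e-07). In mRNA at IM 18h the largest falls among members with at least 0.5 CPM were those of PCED1B-AS1, from 0.661, 0.262 and 1.17 CPM to 0.0543, 0.0526 and 0.0550 CPM, and HECW2-AS1, from 0.937, 1.20 and 0.892 CPM to 0, 0.263 and 0.110 CPM.

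HDAC4-AS1, head-to-head with the histone deacetylase gene HDAC4, was at 0, 0.157 and 0 CPM in CTRL mRNA, at 0.560, 0.507 and 0.715 CPM at IM 6h and at 1.19, 0.421 and 0.770 CPM at IM 18h. All treated values exceeded the CTRL values, with edgeR adjusted p of 0.0101 and 0.000918, and the ratios to CTRL (3 counts) were 10.8 (95% counting interval 3.42 to 55.0) and 14.6 (4.67 to 73.3). The IM 6h call was lost without CTRL replicate 1 or 3. Its nuclear log2 fold change was 1.06 ± 0.30 at IM 18h and −2.01 ± 0.42 at KCl 1h.

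JTE-607 for 1 h moved fewer members. In nuclei 34 (4.22%) were higher and 19 (2.36%) lower, against 7.00% and 1.51% of all genes tested, and the medians were −0.13 in members and −0.01 in all genes. With the replicate number as a block, 46 members were higher and 50 lower, 96 in place of 53. Without CTRL replicate 2, JTE 1h replicate 1 or JTE 1h replicate 3 the total became 26, 30 and 29, with 5, 9 and 6 lower, and without CTRL replicate 3 or JTE 1h replicate 2 only 7 and 9 were lower. In mRNA 2 were higher and 3 lower at 1 h, against 0.387% and 0.464% of all genes. At 6 h 46 were higher (9.15%) and 53 lower (10.5%), against 6.73% and 6.47%, and at 18 h 16 and 8 (3.18% and 1.59%), against 3.29% and 2.09%. The 5 calls at 1 h became 1 or 2 without any library but JTE 1h replicate 1, and the 24 at 18 h became 15 and 11 without JTE 18h replicate 1 or 3.

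IDI2-AS1 had the largest nuclear rise with JTE among members with a mean of at least 1 CPM there and no overlap of groups. It was at 0.0447, 0 and 0.0495 CPM in CTRL nuclei, at 1.03, 1.06 and 1.33 CPM at JTE 1h and at 0.747, 0.884 and 1.65 CPM at KCl 1h. Every treated library lay above every CTRL library (edgeR adjusted p = 5.77e-05 for JTE and 1.2e-05 for KCl), and the JTE ratio to CTRL, which held 2 counts, was 37.0 (95% counting interval 9.92 to 311). IDI2-AS1 starts 2730 bases past the end of GTPBP4 on its own strand, and 57.7% of its exon bases are shared with other genes. In mRNA it was at 0, 0 and 0.0557 CPM in CTRL, at 0.496, 1.08 and 1.05 CPM at JTE 6h and at 1.66, 1.23 and 2.08 CPM at KCl 3h. IDI2 rose in JTE nuclei as well, by 3.86 ± 0.51 on the log2 scale.

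SCG5-AS1, inside the neuroendocrine chaperone gene SCG5, rose from 0.0894, 0.273 and 0.297 CPM to 1.94, 1.31 and 1.82 CPM in JTE nuclei (log2 fold change 2.93 ± 0.48, edgeR adjusted p = 0.00039). TGFB2-AS1, which starts 557 bases from the start of the growth factor gene TGFB2 and does not overlap it, rose by 1.87 ± 0.33 with JTE and 2.53 ± 0.32 with KCl on the log2 scale. HM13-AS1 rose by 2.02 ± 0.39 while HM13, a signal peptide peptidase gene at 126, 154 and 154 CPM in CTRL, had a log2 fold change of −0.18 ± 0.15, but 49.5% of the exon bases of HM13-AS1 are shared with HM13.

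In the pair with TSPOAP1 the partner moved more than the member. TSPOAP1-AS1 was at 6.70, 6.92 and 11.9 CPM in CTRL nuclei and at 20.9, 21.3 and 19.6 CPM with JTE, a log2 fold change of 1.28 ± 0.21 (edgeR adjusted p = 0.000362). TSPOAP1, a gene for a benzodiazepine receptor-associated protein, went from 6.03, 6.97 and 12.8 CPM to 152, 116 and 138 CPM, a log2 fold change of 3.98 ± 0.31. The third CTRL replicate was the highest CTRL library for both, and treated and CTRL values did not overlap in either. Other genes share 61.3% of the exon bases of TSPOAP1-AS1. EPB41L4A-AS1 was at 24.6, 25.2 and 24.6 CPM in CTRL and 23.5, 23.6 and 22.9 CPM with JTE, with a log2 fold change of −0.09 ± 0.12, beside 2.09 ± 0.20 for EPB41L4A, although 49.6% of its exon bases are shared with that gene.

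The nuclear falls with JTE were smaller. DLG5-AS1, which starts 846 bases from the start of the scaffold gene DLG5, was at 0.983, 1.14 and 0.941 CPM in CTRL and at 0.330, 0.387 and 0.444 CPM with JTE, a log2 fold change of −1.39 ± 0.33 (edgeR adjusted p = 0.0095, lost without JTE 1h replicate 1 at −1.27). TONSL-AS1, inside the DNA repair gene TONSL, fell by 1.23 ± 0.26 on the log2 scale from 1.52, 1.46 and 1.58 CPM. SLCO4A1-AS2 fell by 1.07 ± 0.22 from 2.01, 2.60 and 2.92 CPM, with 1.15, 1.06 and 1.33 CPM in the treated libraries. EHD4-AS1 also fell, by 1.07 ± 0.34 (edgeR adjusted p = 0.0498), but this call was lost with DESeq2 and without any single CTRL library or JTE 1h replicate 1 or 2, with −1.14 to −0.81.

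In mRNA at JTE 1h the 4 named members were PSMD6-AS2 and SH3BP5-AS1, which rose, and RBM12B-AS1 and MATN1-AS1, which fell. PSMD6-AS2, tail-to-tail with the proteasome gene PSMD6, starts 560 bases past the end of ATXN7 on its strand. It was at 1.38, 1.20 and 0.780 CPM in CTRL, 2.99, 2.75 and 2.99 CPM at JTE 1h and 8.74, 7.80 and 6.75 CPM at JTE 6h, and the groups did not overlap at either time. The log2 fold changes were 1.37 ± 0.26 at 1 h (edgeR adjusted p = 0.00832, lost without CTRL replicate 3), 2.78 ± 0.26 at 6 h (5.32e-08) and 0.89 ± 0.27 at 18 h (0.0402). SH3BP5-AS1 starts 1266 bases past the end of CAPN7 on its strand and went from 6.34, 4.61 and 6.69 CPM to 9.75, 14.4 and 15.3 CPM at JTE 1h (log2 fold change 1.16 ± 0.23, edgeR adjusted p = 0.012, needing CTRL replicate 2 and both of JTE 1h replicates 2 and 3). RBM12B-AS1 fell by 1.54 ± 0.33 and MATN1-AS1 by 0.99 ± 0.24 on the log2 scale, and each call was lost without some single libraries, CTRL replicates 1 and 3 among them.

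At JTE 6h PRKAR2A-AS1 fell from 0.661, 0.891 and 0.334 CPM to 0.124, 0.171 and 0.144 CPM in mRNA and HMGN3-AS1 from 1.27, 1.05 and 0.948 CPM to 0.186, 0.398 and 0.287 CPM, while their partners PRKAR2A and HMGN3 had log2 fold changes of 0.07 ± 0.11 and 0.21 ± 0.14. FAM167A-AS1 rose from 0.165, 0.0524 and 0.167 CPM to 1.12, 1.08 and 1.58 CPM (log2 fold change 3.26 ± 0.58, edgeR adjusted p = 0.000239). At JTE 18h PRR7-AS1 went from 0.827, 0.576 and 1.06 CPM to 6.94, 8.93 and 7.58 CPM (3.25 ± 0.31, edgeR adjusted p = 4.5e-07), beside 1.23 ± 0.31 for PRR7, and its start lies 8909 bases downstream of DBN1 on its strand. PPP3CB-AS1, across from a calcineurin catalytic subunit gene, fell by 1.33 ± 0.27 at JTE 18h, beside a fall of 0.77 ± 0.14 for PPP3CB. PRR29-AS1 rose by 2.42 ± 0.60 and SRRM2-AS1 fell by 1.32 ± 0.36, calls lost without some single libraries, CTRL replicate 1 and JTE 18h replicate 1 among them.

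With KCl more members fell than rose, although in nuclei this held only for those at 1 CPM or more. In KCl 1h nuclei 165 (20.5%) were lower and 111 (13.8%) higher, against 8.50% and 15.3% of all genes tested, and the median log2 fold change was −0.17 in members and 0.02 in all genes. Without the 32 members seen through a single group, a check added after the values were seen, 165 were lower and 101 higher. Of the 468 tested members with a mean nuclear level of 1 CPM or more, 126 (26.9%) were lower and 41 (8.76%) higher, against 7.61% and 8.16% of all genes at that level. Of the 337 under 1 CPM, 39 (11.6%) were lower and 70 (20.8%) higher, against 10.8% and 33.3% of all genes at that level. In mRNA 44 (8.75%) were lower and 13 (2.58%) higher at 1 h, against 2.94% and 2.51% of all genes, and 79 (15.7%) lower and 16 (3.18%) higher at 3 h, against 7.33% and 4.55%. The 57 calls in mRNA at 1 h became 34 without CTRL replicate 1 and 31 without KCl 1h replicate 3. Of the 276 called in KCl nuclei, the groups did not overlap in 96.7%, against 97.2% of all genes called.

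ASB15-AS1, MTUS2-AS1, CALML3-AS1 and WDR86-AS1 had the largest nuclear rises with KCl among members with a mean of at least 1 CPM there and no overlap of groups. ASB15-AS1, inside an ankyrin repeat gene, was at 0 CPM in every CTRL nuclear library and at 4.16, 3.96 and 3.88 CPM with KCl, at least 28.6-fold higher when CTRL is set to 3 counts per library. CALML3-AS1, with 0 CPM in every CTRL library and 1.87, 1.77 and 3.11 CPM with KCl, was at least 16.1-fold higher by the same floor, and WDR86-AS1, with 1.12, 1.26 and 2.18 CPM, at least 10.9-fold. All 4 are among the members that met the count rule through KCl 1h alone, so that their rise follows from the way they were chosen and no p is given.

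MTUS2-AS1, inside a microtubule-associated gene, was at 0.0447, 0 and 0 CPM in CTRL nuclei and at 6.24, 7.17 and 6.06 CPM with KCl, a ratio of 420 over a single count (95% counting interval 74.9 to 16628). In mRNA it was at 0 CPM in CTRL and at 0.685, 0.425 and 0.594 CPM at KCl 3h, at least 3.48-fold higher. Among the partners, ASB15 rose by 8.16 ± 0.47, MTUS2 by 6.23 ± 0.33 and WDR86 by 2.37 ± 0.29 on the log2 scale in nuclei. CALML3 was too low to be tested. SLC26A4-AS1, across from the anion exchanger gene for pendrin, was at 0.179, 0.0456 and 0.0495 CPM in CTRL nuclei and 5.60, 4.65 and 10.6 CPM with KCl, a log2 fold change of 6.14 ± 0.45, and also rose in JTE nuclei by 2.95 ± 0.60. It too held under 5 counts in every CTRL nuclear library, so treated libraries alone carried it past the count rule and no p is given.

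For PLCE1-AS1 and PAPLN-AS1, which also met the count rule through KCl 1h alone, the partner was not called. PLCE1-AS1, inside the phospholipase C epsilon gene, was at 0 CPM in CTRL nuclei and at 1.28, 0.884 and 1.26 CPM with KCl, at least 8.17-fold higher. PLCE1 was at 7.55, 6.83 and 8.57 CPM in CTRL and at 10.3, 8.42 and 12.8 CPM with KCl, a log2 fold change of 0.46 ± 0.16 that was not called. PAPLN-AS1, inside the papilin gene, went from 0.0447, 0 and 0 CPM to 0.853, 1.30 and 1.55 CPM, a ratio of 80.6 over a single count (95% counting interval 14 to 3225), beside 0.33 ± 0.16 on the log2 scale for PAPLN.

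Among members with a mean of at least 1 CPM in CTRL nuclei and no overlap of groups, 4 had the largest nuclear falls with KCl, of about the same size. HNRNPK-AS1 went from 1.07, 1.18 and 1.29 CPM to 0.320, 0.0931 and 0.291 CPM, but 79.2% of its exon bases are shared with HNRNPK, an RNA-binding protein gene at 785, 723 and 686 CPM in CTRL. ATXN7L3-AS1, across from a gene of the SAGA deubiquitinase module, went from 0.849, 1.28 and 2.03 CPM to 0.480, 0.279 and 0.0970 CPM (log2 fold change −2.27 ± 0.44, edgeR adjusted p = 0.00042), while ATXN7L3 had −0.01 ± 0.10. ZFPM1-AS1 lies in introns of ZFPM1, the gene for the GATA1 partner FOG1, and went from 1.65, 3.05 and 2.53 CPM to 0.373, 0.512 and 0.728 CPM (−2.14 ± 0.33, edgeR adjusted p = 3.77e-05). It fell in mRNA as well, by 2.52 ± 0.62 at 1 h and 2.59 ± 0.72 at 3 h, and ZFPM1 in nuclei had −0.39 ± 0.13. TMEM44-AS2 fell by 2.13 ± 0.30, with −0.32 ± 0.12 for TMEM44. In these 4 members the KCl and CTRL nuclear values did not overlap.

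In 4 pairs the member was lower and the partner higher in KCl nuclei, and in 1 pair the reverse. Of the 763 pairs, 103 members were higher and 161 lower, and 72 partners were higher and 32 lower. Both were higher in 43 pairs and both lower in 17. CALCRL-AS1, which spans the gene of a receptor for adrenomedullin, went from 6.35, 5.01 and 4.51 CPM to 2.77, 1.44 and 1.5 CPM (log2 fold change −1.48 ± 0.28, edgeR adjusted p = 0.00036), while CALCRL went from 0.223, 0.319 and 0.149 CPM to 1.55, 0.791 and 0.776 CPM. NEXN-AS1 is the reverse case, with a rise of 1.71 ± 0.61 beside a fall of 0.80 ± 0.22 for the actin-binding protein gene NEXN.

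In KCl mRNA the largest fall among the named members at 1 h was that of SEMA3F-AS1, from 0.992, 0.210 and 0.613 CPM to 0, 0.0335 and 0.0465 CPM. At 3 h the largest was that of ZNF252P-AS1, given below. FAF1-AS1 came next at 3 h, from 0.496, 0.629 and 0.390 CPM to 0.0490, 0 and 0.0495 CPM. CTRL was 33.6 times higher than KCl 3h for ZNF252P-AS1 and 15.7 times higher for FAF1-AS1. The counting intervals, 5.59 to 1371 and 3.95 to 136, overlap. SEMA3F and FAF1 had log2 fold changes of −0.17 ± 0.29 and 0.13 ± 0.10. ZNF252P-AS1 fell from 0.606, 0.838 and 0.167 CPM to 0.155, 0.1 and 0.0233 CPM at 1 h (edgeR adjusted p = 0.029, needing CTRL replicates 1 and 2 and KCl 1h replicates 2 and 3) and to 0, 0 and 0.0495 CPM at 3 h. FAM170B-AS1 was at 0 CPM in CTRL mRNA and 0.207, 0.787 and 1.00 CPM at KCl 1h, at least 4.07-fold higher.

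**Figure D3:**
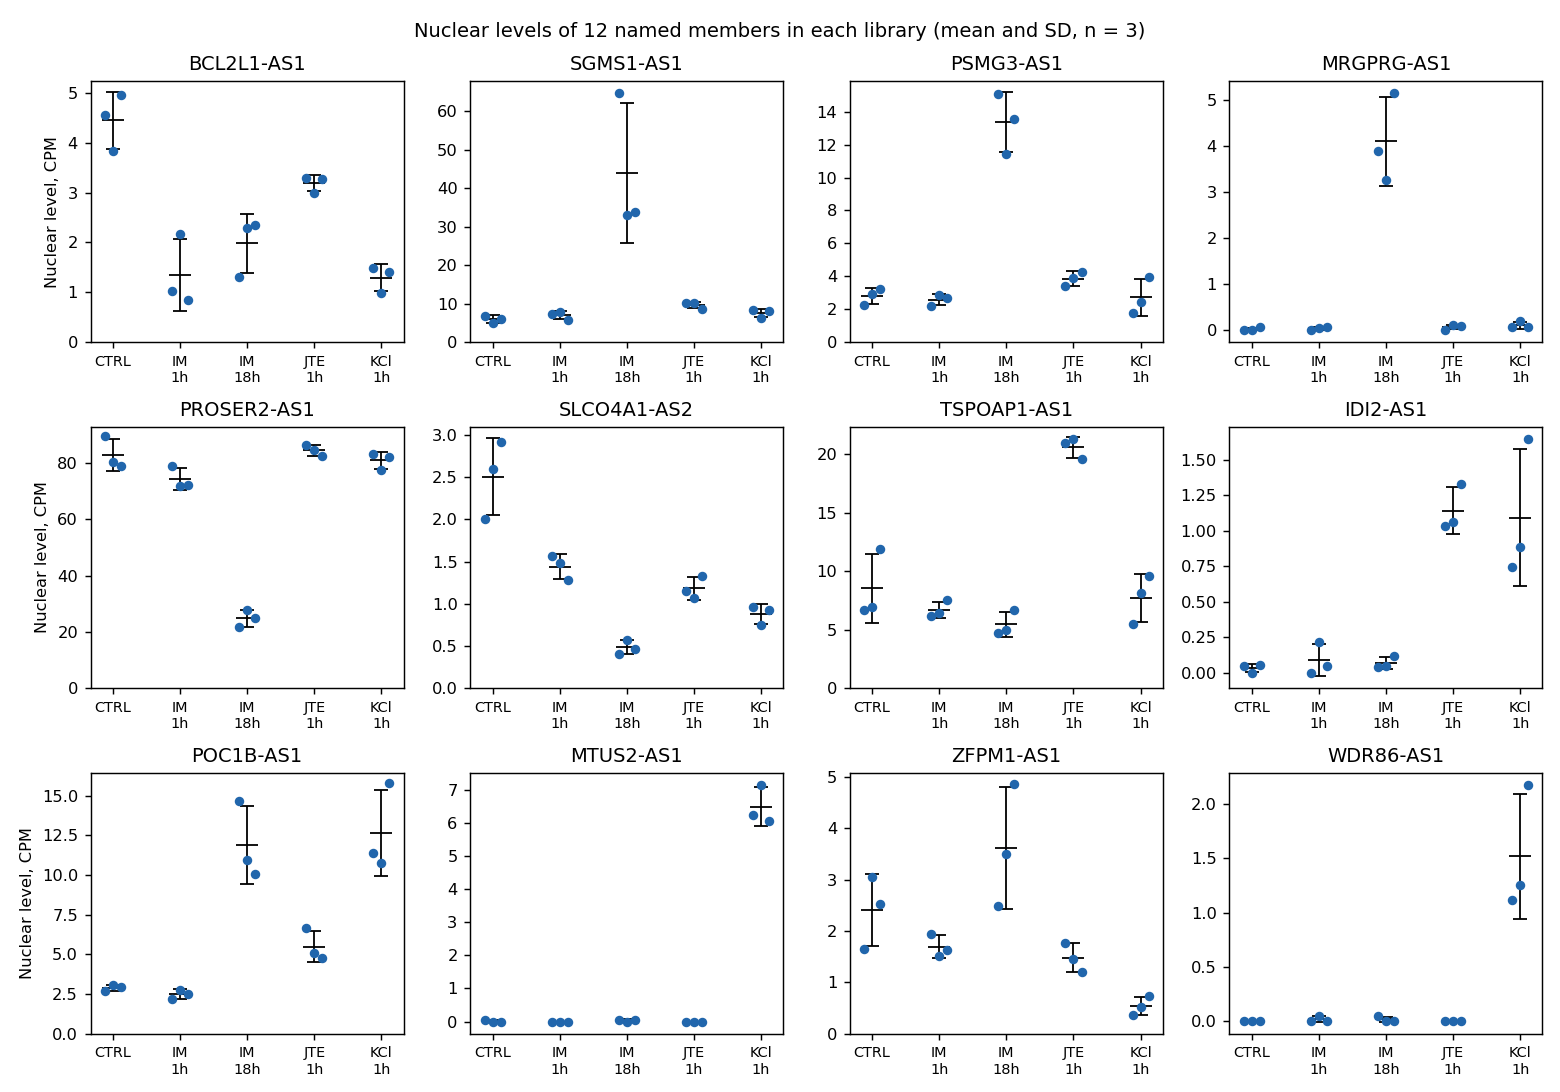
CPM of 12 named members in each of the 15 nuclear libraries (points), with the mean and SD of 3 replicates, on linear axes. SGMS1-AS1, PSMG3-AS1 and MRGPRG-AS1 stand apart at IM 18h, MTUS2-AS1 and WDR86-AS1 at KCl 1h, IDI2-AS1 at JTE 1h and KCl 1h, and PROSER2-AS1 is lower at IM 18h alone.

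POC1B-AS1 and RAB33B-AS1 were the members whose KCl 1h response differed between the fractions. POC1B-AS1, which starts 370 bases from the centriole gene POC1B and has 98.2% of its exon bases outside it, was at 2.68, 3.05 and 2.92 CPM in CTRL nuclei and 11.4, 10.8 and 15.8 CPM with KCl. In mRNA it was at 1.16, 1.15 and 0.892 CPM in CTRL and 0.828, 0.787 and 1.51 CPM with KCl. Nuclear values thus did not overlap between groups and mRNA values did, and the nuclear response exceeded that of mRNA by 2.04 ± 0.38 on the log2 scale (edgeR interaction, adjusted p = 0.023). It also rose in IM 18h nuclei (2.05 ± 0.19) and JTE 1h nuclei (0.93 ± 0.20), while POC1B was not called in any of the 3.

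RAB33B-AS1, facing a Golgi GTPase gene, was at 6.57, 5.74 and 7.58 CPM in CTRL nuclei and 12.1, 10.9 and 18.2 CPM with KCl, and at 5.29, 5.71 and 6.41 CPM and 4.40, 3.87 and 4.49 CPM in mRNA. All nuclear KCl values lay above CTRL and all mRNA KCl values below it, and the responses differed by 1.40 ± 0.28 on the log2 scale (edgeR interaction, adjusted p = 0.032). Both calls were lost without any single nuclear CTRL library, without nuclear KCl 1h replicate 3 and without mRNA KCl 1h replicate 1 or 2, with differences of 1.84 to 2.07 for POC1B-AS1 and 1.16 to 1.48 for RAB33B-AS1. Of 707 members tested for KCl 1h, 2 thus had a larger nuclear response and none a smaller one, against 0.588% and 0.0806% of all genes. DESeq2 called 12 and the fit with the replicate block 8. In the IM 1h, IM 18h and JTE 1h interactions edgeR called no member among 660, 704 and 663, with 23, 55 and 51 at an unadjusted p under 0.05, and DESeq2 called none. The shares of all genes called there were 0.00% and 0.00% for IM 1h, 0.0551% and 0.0351% for IM 18h, and 0.0555% and 0.00504% for JTE 1h, for larger and smaller nuclear responses.

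The position of a member went with its response. In IM 18h nuclei 97 of 284 tested head-to-head overlapping members (34.2%) were higher and 26 (9.15%) lower, with a median log2 fold change of 0.42. Of 280 members inside their partner 40 (14.3%) were higher and 47 (16.8%) lower, with a median of −0.07. Among all genes tested 17.2% were higher and 15.4% lower, so the inside class was near the background. The head-to-head members without overlap (14 higher and 2 lower of 34, median 0.44) were near the head-to-head overlapping class. So were those spanning the partner (16 and 3 of 44, median 0.43). The tail-to-tail overlapping members lay between (34, or 23.1%, and 11, or 7.48%, of 147, median 0.11). With JTE 11 (3.93%) of the 280 inside members were higher and 14 (5.00%) lower. In the 284 head-to-head overlapping members 8 (2.82%) were higher and 1 (0.352%) lower, and in all genes 7.00% and 1.51%. The 19 lower calls with JTE ranged from 5 to 50 over the settings given above. The JTE medians were −0.30, −0.09 and 0.00 for the inside, head-to-head and tail-to-tail overlapping classes. With KCl the inside class had 32 higher (11.4%) and 73 lower (26.1%), with a median of −0.42. The head-to-head overlapping class had 41 (14.4%) and 51 (18.0%) with a median of −0.13, and all genes had 15.3% and 8.50%.

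The replicates show the same order. The median of log2(CPM + 0.5) over inside members, less the CTRL mean, was −0.05, −0.02 and 0.07 in the CTRL nuclei, −0.18, −0.18 and −0.23 with JTE, and −0.31, −0.25 and −0.20 with KCl. Both treated groups lay under all CTRL libraries. The head-to-head overlapping members had −0.03, −0.04 and −0.10 with JTE and 0.34, 0.21 and 0.31 at IM 18h, where the inside members had −0.04, −0.02 and 0.00. Since the members were chosen with these data in view, no p is given for the difference between classes.

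**Figure D4:**
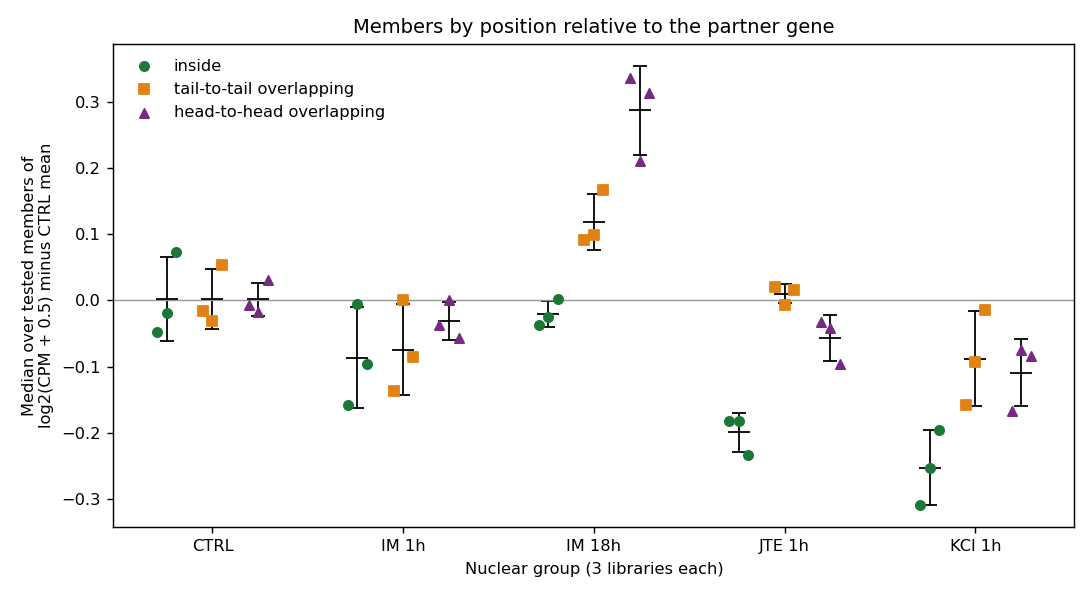
Median of log2(CPM + 0.5), less the CTRL mean, over the tested members of 3 position classes in each nuclear library (coloured points), with mean and SD over the 3 libraries of a group in black. The inside class lies lowest in all IM 18h, JTE 1h and KCl 1h libraries, and the head-to-head overlapping class is highest at IM 18h, from 0.21 to 0.34.

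Because strand was not used, the share of a member's exons that lies in partner introns is given beside these values. Members wholly within partner introns had median log2 fold changes of −0.08 at IM 18h, −0.32 with JTE and −0.31 with KCl (141 tested), and members with no exon base in partner introns had 0.49, 0.01 and −0.06 (153 tested). The part of partner pre-mRNA in the former was not tested. Members that share no exon base with any other gene (239 tested) had medians of 0.18, −0.16 and −0.11, near those of the members that do (0.15, −0.12 and −0.20).

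A further class, set after the values were seen, holds the 73 members that start within 10000 bases past the end of a gene on their own strand with a mean nuclear CPM of 10 or more. Of the 65 tested, 9 (13.8%) were higher and 1 (1.54%) lower with JTE, against 7.00% and 1.51% of all genes tested, with a median of 0.14. With KCl 18 (27.7%) were higher and 10 (15.4%) lower, against 15.3% and 8.50%, with a median of 0.04. Of the 727 tested members that neither follow nor overlap such a gene, 24 (3.30%) were higher and 18 (2.48%) lower with JTE and 92 (12.7%) higher and 150 (20.6%) lower with KCl, with medians of −0.16 and −0.19. At IM 18h 13 of the 65 (20%) were higher and 3 (4.62%) lower, and 186 of the 727 (25.6%) higher and 87 (12%) lower, against 17.2% and 15.4% of all genes. The differences between these classes were not tested.

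Members and partners moved together in part. Over 763 pairs on opposite strands tested in nuclei, Pearson's r between the log2 fold changes of member and partner was 0.56 at IM 18h, 0.60 with KCl, 0.43 with JTE and 0.13 at IM 1h. Spearman's rho, which depends less on extreme values, was 0.51, 0.35, 0.30 and 0.25, so that the order of IM 18h and KCl differed between the measures. These describe genes that share libraries and, in overlapping pairs, exon bases, and some partners stand in more than 1 pair. At IM 18h both genes were higher in 68 pairs and both lower in 44, while in 114 the member alone was higher and in 42 the member alone lower. With KCl both were higher in 43 and both lower in 17, and the member alone was lower in 140 and higher in 59. With JTE both were higher in 8, both lower in none, and the member alone was higher in 25 and lower in 19. In mRNA at IM 18h, over 452 pairs, both were higher in 36 and both lower in 12, the member alone was higher in 114 and lower in 17, with r at 0.44 and rho at 0.38.

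**Figure D5:**
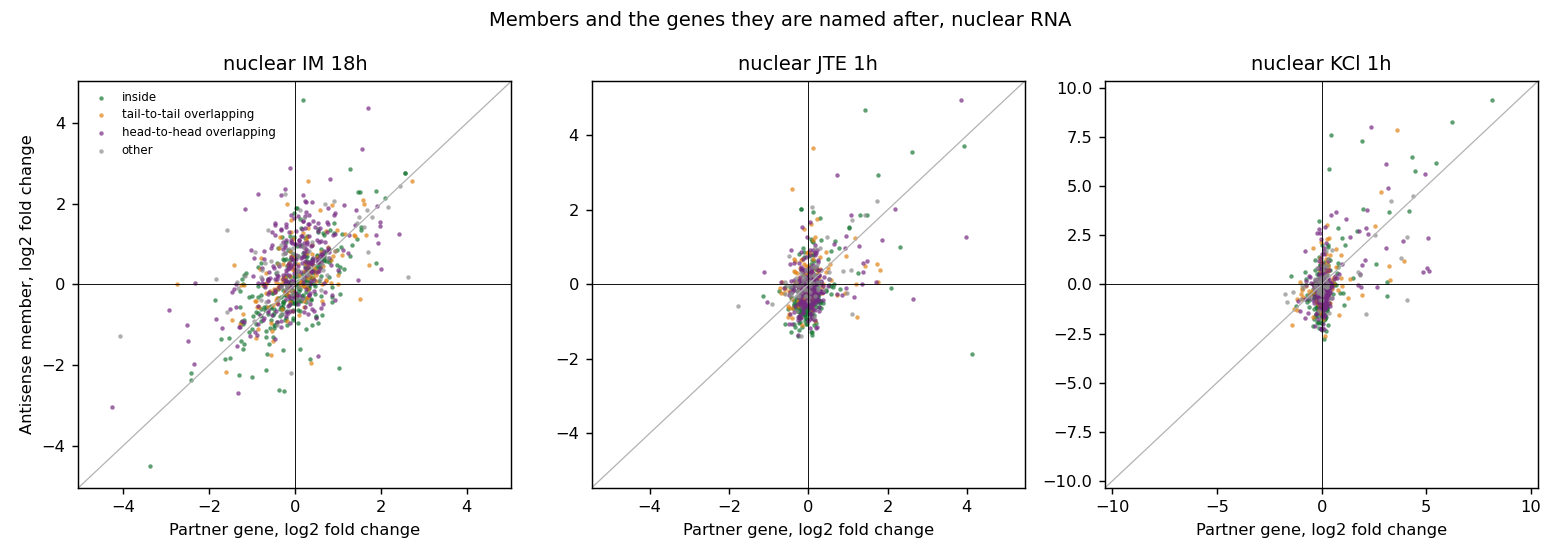
Log2 fold change of each member against that of its partner in IM 18h, JTE 1h and KCl 1h nuclei (1 point per pair, 763 pairs, coloured by position, with the diagonal of equal change). Points spread along the diagonal at IM 18h (r = 0.56), while with JTE and KCl many members lie below 0 beside partners near 0.

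The members were also grouped by what the partner does. The shares of all genes tested were 17.2% higher and 15.4% lower in IM 18h nuclei and 15.3% and 8.50% in KCl 1h nuclei. Those of all tested members were 25.2% and 11.4% at IM 18h and 13.8% and 20.5% with KCl. The lists are small, and whether any differed from the other members was not tested. Of 23 tested members whose partners act in blood cell identity or kinase signalling, 5 (21.7%) were higher and 7 (30.4%) lower in IM 18h nuclei, with a median of 0.01, and 4 (17.4%) were higher and 3 (13.0%) lower with KCl. SPRY4-AS1, whose partner encodes a feedback inhibitor of receptor kinase signalling, fell from 0.715, 1.09 and 0.693 CPM to 0.0817, 0.0956 and 0.117 CPM (log2 fold change −3.04 ± 0.54, edgeR adjusted p = 0.00011), beside a fall of 4.26 ± 0.36 for SPRY4. IRF1-AS1, across from an interferon response factor gene, rose from 1.70, 2.23 and 2.28 CPM to 8.57, 8.17 and 7.43 CPM, with 1.96 ± 0.22 for the member and 0.87 ± 0.15 for IRF1. TNFRSF14-AS1 rose by 3.35 ± 0.44 with KCl from 0.179, 0.456 and 0.0495 CPM.

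Of 17 tested members whose partners act in RNA synthesis, processing or translation, 7 (41.2%) were higher and 2 (11.8%) lower in IM 18h nuclei, with a median of 0.38 beside 0.00 in all genes, and 1 (5.88%) was higher and 5 (29.4%) lower with KCl. DICER1-AS1, head-to-head with the gene of the microRNA-processing nuclease, rose by 2.22 ± 0.38 on the log2 scale from 0.134, 0.319 and 0.297 CPM, with DICER1 at −0.32 ± 0.17. CPEB1-AS1, across from a cytoplasmic polyadenylation factor gene, rose by 2.05 ± 0.28 in nuclei and 2.31 ± 0.46 in mRNA at IM 18h and fell by 2.53 ± 0.62 in mRNA at KCl 1h. INTS6-AS1, named after an Integrator subunit gene, rose by 1.81 ± 0.27 at IM 18h, 0.92 ± 0.28 with JTE and 1.00 ± 0.29 with KCl in nuclei, where INTS6 rose by 1.95 ± 0.11 with KCl only. RBM5-AS1 fell with KCl by 1.98 ± 0.62, but shares 72.7% of its exon bases with the splicing factor gene RBM5.

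Of 21 tested members with partners in cell division, DNA or chromatin, 7 (33.3%) were higher and 1 (4.76%) lower in IM 18h nuclei, with a median of 0.46, and 1 (4.76%) was higher and 7 (33.3%) lower with KCl. SGO1-AS1, across from the gene of a protector of sister chromatid cohesion, rose by 1.65 ± 0.32 at IM 18h from 0.849, 0.683 and 0.792 CPM, with SGO1 at −0.02 ± 0.12. ZRANB2-AS1 was counted in this list although its partner is a splicing regulator gene. It was the 1 member higher with KCl and among the 7 higher at IM 18h. Lying tail-to-tail with ZRANB2, it was at 0.581, 0.774 and 0.347 CPM in CTRL nuclei, 1.48, 1.60 and 2.18 CPM with JTE and 2.24, 2.00 and 1.94 CPM with KCl. The groups did not overlap in either case, and the log2 fold changes were 1.61 ± 0.29 and 1.84 ± 0.28 (edgeR adjusted p = 0.00076 and 3.5e-05). It shares 43.3% of its exon bases with ZRANB2, which had a log2 fold change of 0.07 ± 0.28 with JTE.

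Of 34 members that have been studied for roles of their own, 2 (5.88%) were higher and 7 (20.6%) lower in IM 18h nuclei, against 17.2% and 15.4% of all genes, with a median of 0.02. With KCl 1 (2.94%) was higher and 5 (14.7%) lower, against 15.3% and 8.50%. USP2-AS1, which starts 52 bases from the deubiquitinase gene USP2 and does not overlap it, went from 5.59, 4.83 and 7.08 CPM to 0.817, 1.43 and 1.64 CPM (log2 fold change −2.20 ± 0.22, edgeR adjusted p = 1.29e-07), with USP2 at −0.08 ± 0.12. DLGAP1-AS2 went from 49.3, 35.3 and 27.9 CPM to 7.96, 10.0 and 8.72 CPM (−2.08 ± 0.36, edgeR adjusted p = 0.000539), while its partner DLGAP1, a postsynaptic scaffold gene, reached at most 0.468 CPM in these 2 groups. ZMIZ1-AS1 rose by 1.64 ± 0.31 from 0.670, 0.410 and 0.396 CPM. In each of the 3 the IM 18h and CTRL nuclear values did not overlap.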

How the data were processed

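Nuclear RNA (15 libraries) and polyadenylated RNA (27 libraries) of K562 cells were analysed, 3 biological replicates per group. The authors deposited 2 tables of raw counts of read pairs per gene. Per their methods, reads were trimmed and deduplicated with FASTP, aligned to hg38 with STAR (unique alignments only) and counted over exons with featureCounts, with no strand setting. The annotation release is not given in the sources used here. Exons and positions came from the coordinates deposited with the counts, and all 976 members overlapped their GENCODE 44 entry on the same strand. Levels were CPM on TMM-scaled library sizes.

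Genes were filtered with filterByExpr and tested with edgeR 4.0.16 (R 4.3.3, limma 3.58.1) by the robust quasi-likelihood method, all libraries of a fraction in 1 fit. Nuclear and mRNA responses were compared by an interaction term over 12 libraries. Tables and figures were made with Python 3.11.15, pandas 2.3.3, numpy 2.4.6 and matplotlib 3.10.9. The test was checked on simulated counts. Alternatives were DESeq2 1.42.0, its size factors, no filter, only the 2 groups compared, a replicate block and leaving out each library. Replicate numbers paired nuclear libraries with CTRL (correlation of their deviations 0.235 to 0.891), and mRNA IM 18h with IM 1h (0.112 to 0.345). With mRNA CTRL, treated replicates 3 correlated at 0.0553 to 0.877 and replicates 1 and 2 at −0.368 to 0.0784. The paper gives the mapped read totals of mRNA CTRL replicates 1 and 2 the other way round. Whether these 2 numbers were exchanged was not tested, and the mRNA block fits used them as labelled.

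Members, lists and naming rules were chosen with earlier results of these data known. Named were the called members of largest change each way (4 per nuclear comparison with mean CPM of at least 1 in a group, 2 per mRNA comparison with at least 0.5), the 6 highest per kilobase, the pairs that differed most or moved in opposite directions, up to 4 per list and those called in an interaction. Where CTRL held no count, a floor of 3 counts per library gave a lower bound, and ratios over 1 to 3 counts carry a 95% interval for counting error only.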

Additional observations from a re-analysis of the deposited data

Results flagged for a closer look

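Between 18 h and 1 h of imatinib 283 members differed in nuclear RNA and 198 in mRNA by the direct edgeR contrast of these times. In nuclei 26.2% of tested members were higher and 8.94% lower, against 16.8% and 14.5% of all genes. In mRNA 33.0% were higher and 6.36% lower, against 16.3% and 12.9%. The members thus differed from all genes mainly in direction. At KCl 1h the nuclear response exceeded that in mRNA for POC1B-AS1, by 2.04 on the log2 scale, and for RAB33B-AS1, by 1.40, by the interaction term. The groups had 3 libraries, so no sample was examined for standing apart from its group.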

How the results depend on the processing

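With only the 2 groups compared in the fit, the counts that moved by more than 1.5 times all fell: 0 for nuclear IM 1h (1 with all groups), and in mRNA 35 for IM 6h (64), 0 for JTE 1h (5), 60 for JTE 6h (99), 15 for KCl 1h (57) and 50 for KCl 3h (95). These fits hold fewer samples. For mRNA JTE 18h they gave more calls, 28 (24). With the replicate number as a block, 6 members were called for nuclear IM 1h, 96 for nuclear JTE 1h (53 without it), 9 for mRNA JTE 1h, 45 for mRNA JTE 18h (24) and 8 for the KCl 1h interaction (2). The block moved no other count by more than 1.5 times. In mRNA the replicate numbers as labelled paired with CTRL in replicate 3 of some groups and not in replicates 1 and 2. DESeq2 called 3 for nuclear IM 1h and 12 for the KCl 1h interaction, and without a filter on low counts 3, 1 and 8 were called for nuclear IM 1h, the JTE 1h interaction and the KCl 1h interaction. The cause was not tested.

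Leaving out 1 library at a time gave 0 to 1 calls for nuclear IM 1h, 242 to 287 for nuclear IM 18h, 26 to 43 for nuclear JTE 1h and 243 to 275 for nuclear KCl 1h. In mRNA the ranges were 26 to 54 for IM 6h, 164 to 202 for IM 18h, 1 to 4 for JTE 1h, 74 to 98 for JTE 6h, 11 to 21 for JTE 18h, 31 to 60 for KCl 1h and 67 to 90 for KCl 3h, and for the KCl 1h interaction 0 to 4. The lowest values came without nuclear CTRL replicate 2 for JTE 1h and without the third treated replicate for mRNA IM 6h, JTE 18h and KCl 1h. Of 602 alternative values for 55 named log2 fold changes, none changed sign, 63 lost the call, and 41 of the 55 kept it throughout. With DESeq2 size factors 50% of the 4 mRNA JTE 1h calls were higher, against 40% of 5.

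Most members lie under 1 CPM, where a few counts set a fold change, and counting without strand limits what any value says about the antisense strand itself. Setting members with a group at 0 to their bound moved no median by more than 0.0145.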
